A study of Homo sapiens with 6 samples.

Results

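The genes described here encode the subunits of oxidative phosphorylation: the NADH dehydrogenase of complex I, the succinate dehydrogenase of complex II, the cytochrome bc1 complex III, the cytochrome c oxidase of complex IV and the ATP synthase of complex V. Their probe sets were taken by symbol, as all those whose single platform symbol begins with NDUFA, NDUFB, NDUFC, NDUFS, NDUFV, UQCR, ATP5, SDHA to SDHD or COX4 to COX8, or is CYC1. The rule uses the symbols alone. There were 69 such probe sets for 61 genes, of 12558 probe sets and 8226 named genes on the array. Complex I had 24 probe sets for 22 genes, complex II 3 for 3 genes, complex III 7 for 6 genes, complex IV 14 for 13 genes and complex V 18 for 15 genes. The same spelling also took in 3 probe sets for 2 assembly factors of complex I, NDUFAF1 and NDUFAF3, which help to build the enzyme and are not part of it, and these are kept apart below. A further 3 probe sets with several symbols, at least 1 of them of this kind, were not named.

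The cells were U373, an established line from a human glioblastoma, and their RNA was hybridised to 6 Affymetrix U95 Av2 arrays, of which 5 carried syk-transfected cells. The transfected cells were taken after ethanol with ponasterone A (PonA) on day 1 and on day 2, after ethanol alone on day 1, and untreated on day 1 and on day 2. Untransfected cells were untreated and taken on day 1. PonA is a steroid that switches on a gene placed behind an ecdysone-responsive promoter, here in an ecdysone-inducible system, and the protocol gives 10 µM for 6 to 48 hours. Whether the transfected cells were 1 clone or a pool is not given in the sources used here. The untreated cells got no ethanol, and ethanol alone was measured on day 1 only. Each group is 1 array. The p-values below therefore measure effects against gaps between single arrays, not against repeated cultures. These are the gap between ethanol and untreated cells on day 1 and that between the PonA effects of the 2 days. The fits also draw each probe set's variance toward one pooled over all those tested. That pooled variance counts for 4.476 degrees of freedom (4.337 for transfection), beside 2 residual ones.

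In the inner membrane of mitochondria, complexes I and II pass electrons from NADH and succinate to ubiquinone, complex III passes them on to cytochrome c and complex IV hands them to oxygen. Complexes I, III and IV pump protons as they do so, and complex V makes ATP from the return of those protons. Most subunits are encoded in the nucleus, made in the cytosol and imported. The transcription factors NRF1, YY1 and GABPA, which is of the ETS family, are known to bind the promoters of many of these genes.

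The promoters of 4 members are shown because these genes are among those whose values are described below and because they hold the letters of those factors' core motifs. The core motifs searched on both strands were GCATGCGC for NRF1, CCGGAAG for the ETS family and AAGATGGC for YY1. The NRF1 letters read GCGCATGC on the other strand, so that copies on both strands can overlap. Each stretch is the 150 bases just before the transcription start, read 5′ to 3′ on the gene's strand, from RefSeq promoters of assembly GRCh38.p14, with motif letters in capitals. COX5B lies on the plus strand at chr2:97645912-97646061, NDUFS6 on the plus strand at chr5:1801257-1801406, SDHD on the plus strand at chr11:112086723-112086872 and ATP5PF on the minus strand at chr21:25735055-25735204.
COX5B: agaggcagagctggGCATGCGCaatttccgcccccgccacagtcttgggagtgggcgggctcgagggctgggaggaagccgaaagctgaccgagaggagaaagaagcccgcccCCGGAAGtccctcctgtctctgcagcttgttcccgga
NDUFS6: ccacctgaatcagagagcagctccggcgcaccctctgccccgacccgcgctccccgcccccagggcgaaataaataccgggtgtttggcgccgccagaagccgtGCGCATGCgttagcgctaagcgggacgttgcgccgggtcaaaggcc
SDHD: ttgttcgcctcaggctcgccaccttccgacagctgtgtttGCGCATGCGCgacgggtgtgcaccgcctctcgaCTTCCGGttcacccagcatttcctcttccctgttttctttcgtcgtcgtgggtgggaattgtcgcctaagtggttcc
ATP5PF: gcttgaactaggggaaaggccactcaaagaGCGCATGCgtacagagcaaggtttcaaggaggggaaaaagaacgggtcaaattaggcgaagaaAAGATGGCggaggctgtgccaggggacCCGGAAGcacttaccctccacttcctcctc

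In COX5B the NRF1 letters begin 136 bases before the start and the ETS letters 37 bases before it. NDUFS6 holds the NRF1 letters on the opposite strand, beginning 46 bases before the start. SDHD holds them on both strands in overlapping copies that begin 110 and 108 bases before the start, and the ETS letters on the opposite strand at 77. ATP5PF holds all 3, the NRF1 letters on the opposite strand at 120, the YY1 letters at 57 and the ETS letters at 30. Over windows of 300 bases, from 250 before the start to 50 after it, 50 of the 61 member genes had a promoter in the RefSeq table. The NRF1 letters stood in 10 of these 50 (20%) and in 3.27% of all 27305 promoters, the ETS letters in 16 (32%) and 10.7%, and the YY1 letters in 9 (18%) and 3.03%. At least 1 of the 3 stood in 27 member promoters (54%) and in 15.6% of all. A match is a description of letters, not of binding.

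The values are MAS5 signal as the authors gave it, Affymetrix's summary of a probe set on a linear scale. Every array has nearly the same trimmed mean in these values. A signal below its array's 40th percentile, 22.7 to 26.5 units, is called below the floor here. The probe sets of SYK did not read alike: 1 gave 39.1 and 72.5 units with PonA on days 1 and 2, against 1.74 to 22.2 on the other 4 arrays, another gave 22.0 to 73.1 with no such order and the third stayed at 6.5 or less. Of 10 astroglial and glioma marker genes on the array, 7 were above the floor on all 6 arrays, with VIM at 4920 to 6460 units, and AQP4 was below it on every array. GFAP read 103 to 229 units on the transfected arrays and 1530 on the untransfected one. Of the other cell types' markers, the genes above the floor on all 6 arrays were none of 5 neuronal, none of 4 endothelial, 2 of 3 oligodendrocyte (MOG and MAG, at 33.6 to 243 units), 2 of 4 blood (CD3E and HBB, at 27.8 to 83.2) and 2 of 4 epithelial ones (KRT8 at 427 to 590 and KRT18 at 50 to 82.3). MBP of oligodendrocytes, PTPRC and CD14 of blood cells and EPCAM of epithelium were below it throughout. Log2 values of pairs of arrays correlated across probe sets at 0.946 to 0.985.

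Most members were expressed well above the floor. Over the 6 arrays, 60 of the 69 probe sets were above it on every array, 5 on some and 4 on none. The 5 were NDUFB6, ATP5F1B, ATP5PB, 1 of 2 probe sets of ATP5MC2 and 1 of 2 of NDUFAF1. The 4 below the floor throughout were ATP5MF, COX7A1 and the other probe sets of NDUFV2 and ATP5MC2, and these were left untested. The median signal over the transfected arrays was 673 units for the 65 tested members and 111 for all 7934 probe sets tested, given only to say how far above the floor each set lay. A gene can have a bright and a dim probe set, as NDUFV2 does, with 1389.9 to 1552 units on the transfected arrays for 1 and 0.294 to 1.55 for the other, so the levels of single genes are not ranked against each other here.

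**Figure D1:**
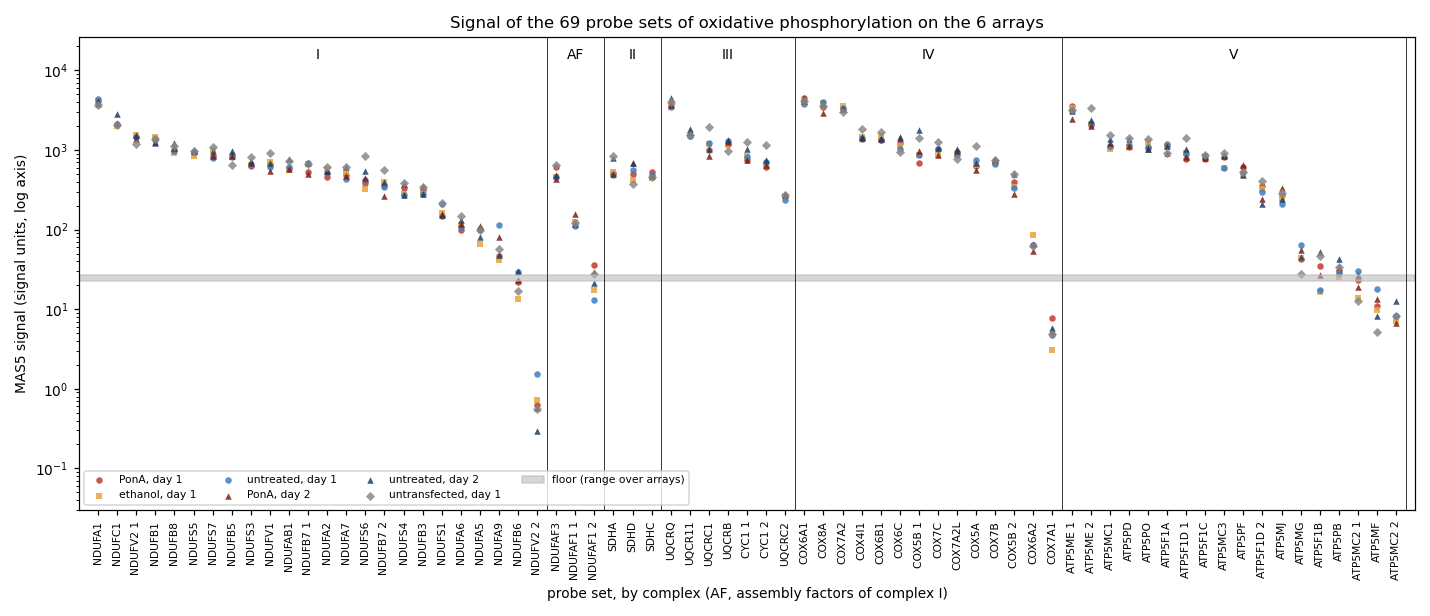
MAS5 signal in signal units (log axis) of the 69 probe sets on the 6 arrays, 1 point per array, grouped by complex I to V and the assembly factors (AF) of complex I; 1 and 2 after a symbol mark a gene's brighter and dimmer probe set, and the grey band is the range of the floor, 22.7 to 26.5 units. The 6 points of most probe sets lie close together, and 4 probe sets stay under the band on all arrays.

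Several complexes have subunits that come in tissue forms, each made from its own gene. COX4I1, the widespread form of a nuclear-encoded subunit of cytochrome c oxidase, read 1390.1 and 1421 units with PonA on days 1 and 2, 1447 with ethanol, 1398 and 1465 untreated on days 1 and 2, and 1832 in untransfected cells. It was the most level member over the transfected arrays, with a highest signal 1.05 times the lowest. COX6A1, the widespread form, read 3789 to 4531 units over the 6 arrays, and COX6A2, the form of heart and skeletal muscle, 53.3 to 84.7. COX7A2, the widespread form, read 2993 to 3608 units, and COX7A2L, which takes part in joining complexes III and IV, 779 to 1036. COX7A1, the muscle form, read 3.05 to 7.8 units and was below the floor on every array. The identical c subunit of ATP synthase is made from ATP5MC1, which read 1034 to 1532 units, from ATP5MC3, which read 586 to 912, and from ATP5MC2, whose probe sets gave 12.7 to 30.4 and 6.63 to 12.5.

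PonA was tested first, as the contrast that switches the transgene system on. The fit took ethanol and untreated arrays together as cells without PonA. Both PonA arrays also got ethanol, and on day 2 the only control got none, so PonA and ethanol cannot be told apart there. None of the 65 tested members changed at an adjusted p under 0.05 (limma, Benjamini-Hochberg over all probe sets), while 402 of 7934 probe sets, 5.07%, did, 2.7% higher and 2.37% lower. At an unadjusted p under 0.05 there were 3 members, 1 higher and 2 lower, which is 4.62% of them against 19.5% of all, 10.5% higher and 9.02% lower. The members' log2 effects ran from -0.56 to 0.43 with a median of -0.07, where the median of all probe sets was 0.01, and 45 of 65 were negative, where 49.2% of all probe sets were. No member reached 1.5-fold in the fit, and 15.3% of all probe sets did. Bulk RNA cannot tell fewer cells of a kind from less RNA per cell.

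The intervals rest on the same gaps between arrays as the p-values, and on a variance pooled over probe sets. Each condition was 1 array, so variation between cultures was not measured apart from ethanol, day and array. The intervals therefore do not bound the PonA effect in repeated cultures. The 95% interval of the PonA effect lay within 2-fold in both directions for 63 of the 65 members and within 1.5-fold for 35. The shares of all probe sets are not given here, so these counts are not read as a trait of the members. The exceptions at 2-fold were NDUFA9, an accessory subunit of complex I, with -1.15 to 1.16 on the log2 scale, and the brighter probe set of COX5B with -1.03 to -0.09. The median standard error was 0.17 for members and 0.19 for all probe sets, and the smallest effect that was called anywhere in the fit was 0.79 in size. Over the 5 transfected arrays the highest signal was under 1.5 times the lowest in 49 of 65 members (75.4%) and in 35.0% of all probe sets tested. The members' probe sets also gave a higher median signal, as stated above, and the part of signal strength in this was not tested. Nor was it tested for the other shares of members that are set against those of all probe sets.

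**Figure D2:**
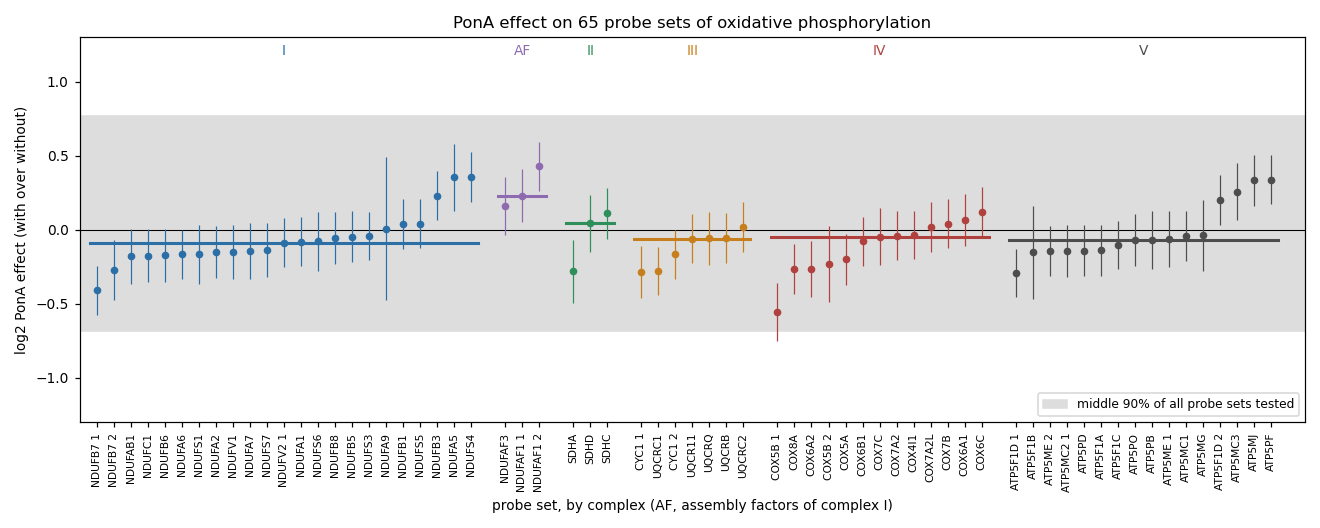
PonA effect on the log2 scale for each of the 65 tested probe sets by complex, with thin bars of 1 standard error on each side and thick lines at the complex medians; the grey band holds the middle 90% of all probe sets tested, from -0.69 to 0.77. Every estimate lies inside the band, from -0.56 to 0.43.

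By complex, the median PonA effect was -0.09 in complex I (17 of 23 tested probe sets negative), 0.04 in complex II (1 of 3), -0.06 in complex III (6 of 7), -0.05 in complex IV (9 of 13) and -0.07 in complex V (12 of 16). It was 0.23 over the 3 probe sets of the assembly factors, all positive. On both PonA arrays 11 members were lower than on all 3 transfected arrays without PonA, which is 16.9% against 15.4% of all probe sets, and 6 were higher, 9.23% against 16.6%. The lower ones were 1 of 2 probe sets of NDUFB7 with the brighter one of NDUFV2 in complex I, both probe sets of CYC1 with UQCRC1 in complex III, COX5A, COX6A2 and COX8A in complex IV, and ATP5F1C with 1 probe set each of ATP5F1D and ATP5ME in complex V. The higher ones were NDUFB3, NDUFS4, ATP5MJ, ATP5PF and both probe sets of NDUFAF1.

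In complex I the largest positive effect was that of NDUFS4, a subunit whose loss impairs assembly of the enzyme and causes Leigh syndrome. It read 328 and 377 units with PonA on days 1 and 2, against 280.1 with ethanol and 268 and 269 untreated on days 1 and 2. Both PonA arrays stood above the other 3, and the log2 effect of 0.36 ± 0.17 (SE) did not pass the test (limma adjusted p = 0.319). The largest negative effect was in 1 of 2 probe sets of NDUFB7, an accessory subunit of the membrane arm, with 523 and 496 units with PonA, against 656 with ethanol and 691 and 687 untreated. That effect was -0.41 ± 0.16 (limma adjusted p = 0.241). The other NDUFB7 probe set, with 357 and 263 units with PonA, 397 with ethanol and 338 and 395 untreated, overlapped between the groups.

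The core subunits of complex I together take electrons from NADH and pass them to ubiquinone, and none of the 5 named here passed the test for PonA. NDUFV1, which binds the flavin that takes electrons from NADH, read 661 and 539 units with PonA, against 712 with ethanol and 619 and 682 untreated, and its effect was -0.15 ± 0.18. NDUFS1, the largest of the cluster-bearing subunits, read 148 and 156 units with PonA, against 162 with ethanol and 208 and 153 untreated, an effect of -0.17 ± 0.20. NDUFS7, which holds the last cluster before ubiquinone, and NDUFS3, in the arm that joins it to the membrane, had effects of -0.14 ± 0.18 and -0.04 ± 0.16. The brighter probe set of NDUFV2 had -0.09 ± 0.17. The limma adjusted p-values of these 5 were 0.713 to 0.923, and the lowest interval bound, that of NDUFS1, was -0.64.

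Complex I is joined from modules with the help of factors such as NDUFAF1. Its dimmer probe set had the largest positive effect of all members, 0.43 ± 0.17 (limma adjusted p = 0.225), with 36.4 and 29.3 units with PonA, against 17.2 with ethanol and 13.2 and 21.2 untreated. The 3 values without PonA were below the floor and entered the fit at the floor. The brighter probe set gave 125 and 157 units with PonA, against 124 with ethanol and 110.3 and 118 untreated, a smaller effect of 0.23. NDUFAF3 was lower on the day 2 PonA array than on any other, with 429.6 units, and had 603 with PonA on day 1, against 454 with ethanol and 463 and 477 untreated.

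In complex II, SDHA, the flavoprotein that oxidises succinate, read 516 and 493 units with PonA on days 1 and 2, against 529.6 with ethanol and 490.5 and 792 untreated on days 1 and 2. The untreated day 2 array was the high one, and the other 4 lay close together. Its log2 effect was -0.28 ± 0.21 (limma adjusted p = 0.547), and it was 0.02 without the untreated day 2 array. SDHC, a membrane anchor that helps to bind ubiquinone, had the largest positive effect of the complex, 0.11 ± 0.17 (adjusted p = 0.791).

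In complex III, UQCRC1, a core protein of the matrix side, read 993 and 849 units with PonA on days 1 and 2, against 1192 with ethanol and 1224 and 1029 untreated. The groups did not overlap, and the effect of -0.28 ± 0.16 did not pass the test (limma adjusted p = 0.420). CYC1, the cytochrome c1 that hands electrons to cytochrome c, gave 751 and 739 units with PonA in its brighter probe set, against 829 with ethanol and 825 and 1030.4 untreated, an effect of -0.28 ± 0.18 (adjusted p = 0.446) and the lowest of the complex. Its dimmer probe set had -0.17 ± 0.17. The highest effect was 0.02, for UQCRC2, the partner of UQCRC1.

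In complex IV, COX5B had the lowest PonA effect of all members. COX5B is a nuclear-encoded subunit on the matrix side of the enzyme that binds zinc. Its brighter probe set read 691 and 975 units with PonA on days 1 and 2, against 869.6 with ethanol and 852 and 1790.1 untreated on days 1 and 2. Within each day the PonA array was the lowest, but the day 2 PonA array was above both day 1 arrays without PonA, so the groups overlap. The log2 effect was -0.56 ± 0.20 (limma adjusted p = 0.184), the smallest adjusted p of the members.

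The dimmer COX5B probe set gave 393 and 281 units with PonA on days 1 and 2, against 345 with ethanol and 335 and 498 untreated. On day 1 the PonA array was therefore the highest and on day 2 the lowest, with an effect of -0.23 ± 0.26 over both days (limma adjusted p = 0.694), which was 0.21 without either day 2 array. COX6C had the largest positive effect of complex IV, 0.12 ± 0.17 (adjusted p = 0.764). COX5A, another nuclear-encoded subunit of the matrix side, had 629 and 561 units with PonA, against 656 with ethanol and 739 and 678 untreated. COX6A2 read 63.3 and 53.3 units with PonA, against 84.7 with ethanol and 64.6 and 66.5 untreated, an effect of -0.27 ± 0.19 (adjusted p = 0.523).

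In complex V, ATP5PF, the coupling factor of the peripheral stalk, had the largest positive effect. It read 617 and 638 units with PonA on days 1 and 2, against 486 with ethanol and 522 and 484 untreated. The groups did not overlap, and the effect of 0.34 ± 0.17 did not pass the test (limma adjusted p = 0.337). ATP5F1D, the delta subunit of the central stalk, had probe sets of opposite sign: the brighter one gave 759.7 and 815 units with PonA, against 919 with ethanol and 887 and 1038 untreated (-0.29 ± 0.16, adjusted p = 0.401). The dimmer one gave 349 and 245 units with PonA, against 326 with ethanol and 295 and 208 untreated (0.20 ± 0.17, adjusted p = 0.589).

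The alpha subunit of ATP synthase, from ATP5F1A, read 1108 and 915 units with PonA, against 1101 with ethanol and 1179 and 1105 untreated, with an effect of -0.14 ± 0.17 (adjusted p = 0.721). The only probe set of ATP5F1B, the catalytic beta subunit, lay about the floor with 35.1 and 26.9 units with PonA, against 16.6 with ethanol and 17.6 and 51.8 untreated. Its effect was -0.15 ± 0.32. Of the c subunit genes, ATP5MC3 had 822 and 847 units with PonA, against 586 with ethanol and 596 and 868 untreated, so that the untreated day 2 array stood with the PonA ones (0.26 ± 0.19, adjusted p = 0.536).

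Set side by side, the days differed in how the members sat against their controls. On day 1, PonA over ethanol gave a member median of 0.01 on the log2 scale with 29 of 63 probe sets lower, against 47% of all, and PonA over untreated gave -0.01 with 35 of 65 lower, against 49.8% of all. On day 2, PonA over untreated gave -0.15 with 48 of 65 lower, against 51.1% of all probe sets. By complex, the lower ones were 16 of 23 in complex I, 2 of 3 in II, 7 of 7 in III, 11 of 13 in IV and 11 of 16 in V. Of the assembly factors' probe sets, 1 of 3 was lower. These are single pairs of arrays with no test. In the fit that lets the PonA effect differ between days, no member and none of the 7934 probe sets passed, with 330 (4.16%) and 2 members at an unadjusted p under 0.05 and a lowest member adjusted p of 0.93 (limma).

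At 1.5-fold between single arrays, 6 of 65 members stood apart with PonA over untreated on day 2, which is 9.23% against 24.7% of all probe sets. The part of the members' higher median signal in such shares was not tested. NDUFA9 was higher at 0.73 on the log2 scale, and SDHA was lower at -0.68, both COX5B probe sets at -0.88 and -0.82, ATP5F1B at -0.95 and 1 probe set of NDUFB7 at -0.59. On day 1 there was none with PonA over ethanol, against 17.8% of all, and 1 with PonA over untreated, NDUFA9, against 21.3%. NDUFA9 read 47.1 and 80.5 units with PonA on days 1 and 2, against 41 with ethanol and 114 and 48.5 untreated, with no order by treatment or day.

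**Figure D3:**
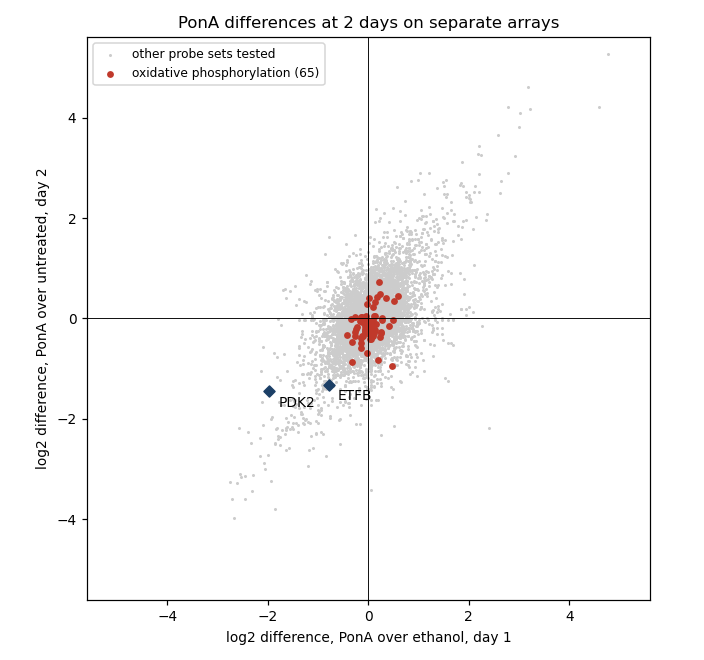
Log2 difference of each tested member between the PonA and untreated arrays of day 2 (vertical axis) and between the PonA and ethanol arrays of day 1 (horizontal axis), 1 point per probe set, with members in red, all other probe sets tested in grey and ETFB and PDK2 as diamonds. The members spread on both sides of 0 on day 1, with a median of 0.01, and lie mostly under 0 on day 2, with a median of -0.15; PDK2 is low on both days.

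The untreated day 2 array takes part in both the PonA and the day comparison of that day. Untreated cells of day 2 over those of day 1 gave a member median of 0.09 with 47 of 64 higher, against 43.2% of all probe sets, and PonA cells of day 2 over day 1 gave 0.03 with 35 of 64 higher, against 43.3%. Untreated day 2 over day 1 reached 1.5-fold in 5 of 64 members, 7.81% against 16.6%: COX5B at 1.07, ATP5F1B at 0.98, SDHA at 0.69 and ATP5PB, of the peripheral stalk, at 0.61, all higher, and NDUFA9 lower at -1.24. The median member effect of PonA was -0.07 with all 5 arrays and -0.01 without either day 2 array, since both then leave PonA to be compared on day 1 alone. The median effect of day was 0.08 with all 5, 0.03 without the untreated day 2 array and 0.11 without the PonA day 2 array.

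No member and none of the 7934 probe sets passed for day in the additive fit (limma), with 1048 (13.2%) and 3 members (4.62%) at an unadjusted p under 0.05. The 3 were the brighter COX5B probe set at 0.82 ± 0.20 (adjusted p = 0.253), SDHD at 0.49 ± 0.19 (0.365) and the dimmer ATP5F1D probe set at -0.55 ± 0.17 (0.321). SDHD, the other membrane anchor of complex II and a paraganglioma gene, read 687 with PonA and 681 untreated on day 2, against 501 with PonA, 417 with ethanol and 552 untreated on day 1. Both day 2 arrays stood above the 3 of day 1. The brighter ATP5F1D probe set had a day effect of 0.16. The ratio of the 3′ to the 5′ control probe set of beta-actin was 1.2 and 1.21 on the day 2 arrays. It was 0.96 to 0.987 on the 4 of day 1. For GAPDH the ratio was 1.01 and 1.04 on the PonA arrays of days 1 and 2, and 0.939 to 0.964 on the other 4. The part of these ratios in the day and PonA effects was not tested.

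Transfected cells were then set against untransfected ones, with 1 untransfected array that the fit takes to vary like the others. None of the 65 members passed, while 21 of 8090 probe sets, 0.26%, did, 0.161% higher and 0.0989% lower. At an unadjusted p under 0.05 there were 10 members (15.4% against 14.9% of all probe sets), of which 9 were lower, 13.8% against 6.66%. The median member effect was -0.23 on the log2 scale, where the median of all probe sets was 0.05, and 45 of 65 were negative, where 45.3% of all were. Medians were -0.23 in complex I, 0.03 in complex II, -0.15 in complex III, -0.14 in complex IV, -0.26 in complex V and -0.11 for the assembly factors.

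On all 5 transfected arrays 27 of the 65 members (41.5%) were lower than on the untransfected one, where 21.1% of all probe sets were. These were 9 of 23 in complex I, 1 of 3 in complex II, 3 of 7 in complex III, 5 of 13 in complex IV, 8 of 16 in complex V and 1 of the 3 of the assembly factors. On all 5, 10 members (15.4%) were higher, against 21.5% of all: NDUFA1, NDUFB5, NDUFV2, SDHD, UQCRB, COX6C, COX7A2, COX7A2L, ATP5F1A and ATP5MG. The median member difference from untransfected cells was -0.16 with PonA on day 1, -0.13 with PonA on day 2, -0.21 with ethanol, -0.22 untreated on day 1 and -0.05 untreated on day 2, where the medians of all probe sets were 0.08, -0.06, 0.04, 0.05 and -0.05.

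Other features set the untransfected array apart. The geometric mean of its 9 hybridisation control probe sets was 157 units, against 271 to 501 on the transfected arrays, GFAP differed as given above, and NEFL, a neurofilament gene of neurons, read 10.1 to 26.5 units on the transfected arrays and 458 on the untransfected one. The summed signal of 5 neuronal markers was 67.7 to 112 on the transfected arrays and 519 on the untransfected one. NEFL made up most of the 519, and 2 of the 5 were below the floor throughout. SYP read 24.8 to 41.7 units on the transfected arrays and 23.3 on the untransfected one, and NEFM 9.77 to 31.1 and 20.8. The 10 astroglial markers summed to 11500 to 12700 and 13300, and GFAP gave 1530 of the 13300. The part of these in the members' differences was not tested, and with 1 array of untransfected cells a difference of that array and one of transfection cannot be told apart.

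**Figure D4:**
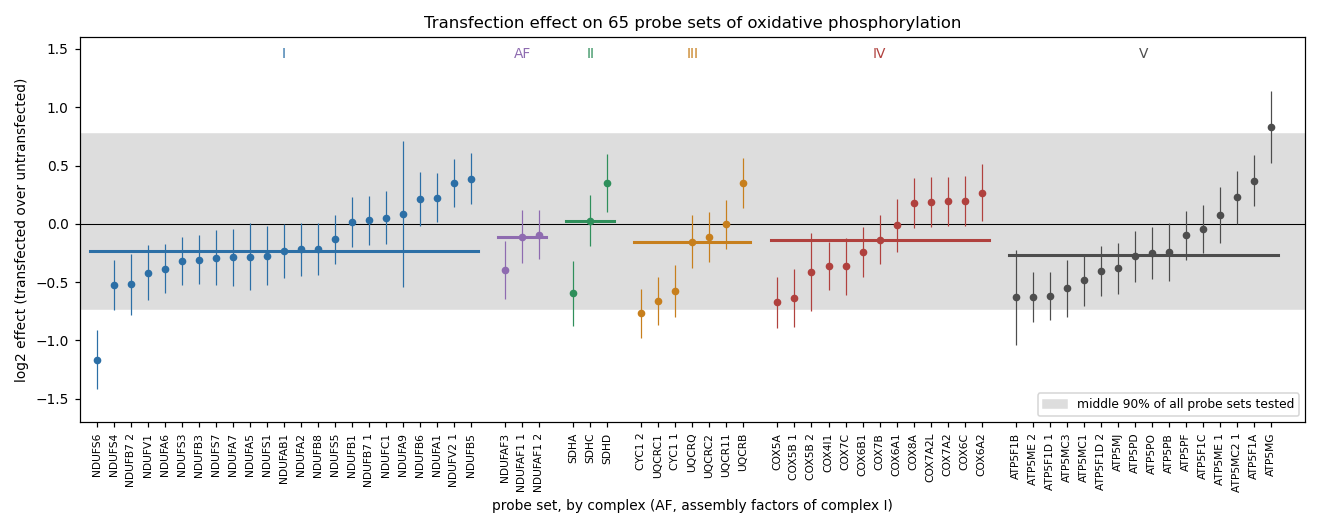
Effect of transfection on the log2 scale for each of the 65 tested probe sets by complex, with thin bars of 1 standard error on each side and thick lines at the complex medians; the grey band holds the middle 90% of all probe sets tested, from -0.73 to 0.77. The estimates lie mostly under 0, NDUFS6 at -1.16 and 1 CYC1 probe set at -0.77 are below the band, and ATP5MG is above it at 0.83.

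NDUFS6, a zinc-binding subunit of complex I known for neonatal lactic acidosis when mutated, had the largest difference of the members. It read 385 and 443 units with PonA on days 1 and 2, 324 with ethanol and 415 and 538 untreated in transfected cells, against 850.3 in untransfected cells. All 5 transfected arrays were lower, and the effect of -1.16 ± 0.25 had an adjusted p of 0.135 (limma). NDUFS4 was also lower on all 5, with 386 units in untransfected cells and an effect of -0.53 ± 0.21 (adjusted p = 0.327). NDUFV1, with 917 units in untransfected cells, had -0.42 ± 0.23 (adjusted p = 0.467).

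SDHA and UQCRC1 were both highest in untransfected cells, with 826 and 1913 units. The SDHA effect was -0.60 ± 0.28 (limma adjusted p = 0.380), but its untreated day 2 array, at 792 units, came near the untransfected value. The UQCRC1 effect was -0.66 ± 0.21 (adjusted p = 0.235). CYC1 in its dimmer probe set read 617 and 644 units with PonA on days 1 and 2, 650.4 with ethanol and 708 and 742 untreated in transfected cells, against 1163 in untransfected cells. All 5 transfected arrays were lower, with an effect of -0.77 ± 0.21 (adjusted p = 0.193), and the brighter probe set, at 1272 units in untransfected cells, had -0.57 ± 0.22 (adjusted p = 0.307).

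In complex IV, COX5A had 1124 units in untransfected cells and an effect of -0.67 ± 0.22 (limma adjusted p = 0.239). The brighter COX5B probe set had 1412 units there and -0.63 ± 0.25 (adjusted p = 0.313), with its untreated day 2 array above that value. In complex V, the brighter ATP5F1D probe set had 1401 units there and -0.62 ± 0.21 (adjusted p = 0.253), and ATP5MC3 had 912 and -0.55 ± 0.24 (adjusted p = 0.364).

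ATP5ME, the e subunit of the membrane part, had probe sets that differed. The dimmer one read 2037 and 1996 units with PonA, 2143 with ethanol and 2111 and 2381 untreated in transfected cells, against 3347 in untransfected cells (-0.63 ± 0.21, limma adjusted p = 0.254). The brighter one read 3539.9 and 2451 units with PonA, 3328 with ethanol and 3102 and 3105 untreated, against 3200.1 (0.07 ± 0.24, adjusted p = 0.914). ATP5MG, the g subunit beside it, was the largest positive difference, with 43.1 and 54.8 units with PonA, 44.2 with ethanol and 63.1 and 44.6 untreated in transfected cells, against 28 in untransfected cells (0.83 ± 0.31, adjusted p = 0.287). ATP5F1A had 901 units in untransfected cells, below all 5 transfected arrays, and an effect of 0.37 ± 0.22 (adjusted p = 0.488).

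Between untreated cells of day 1 alone, 14 of 65 members were at least 1.5-fold apart by transfection, 21.5% against 21.7% of all probe sets. Of these, 12 (18.5%) were lower in transfected cells, against 9.63% of all, and 2 (3.08%), NDUFA9 and ATP5MG, were higher, against 12.1%. Ethanol over untreated cells on day 1 had 2 of 63 members at that fold, NDUFA5 at -0.60 and NDUFA9 at -1.48, against 13.3% of all probe sets, with a member median of 0.01.

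**Figure D5:**
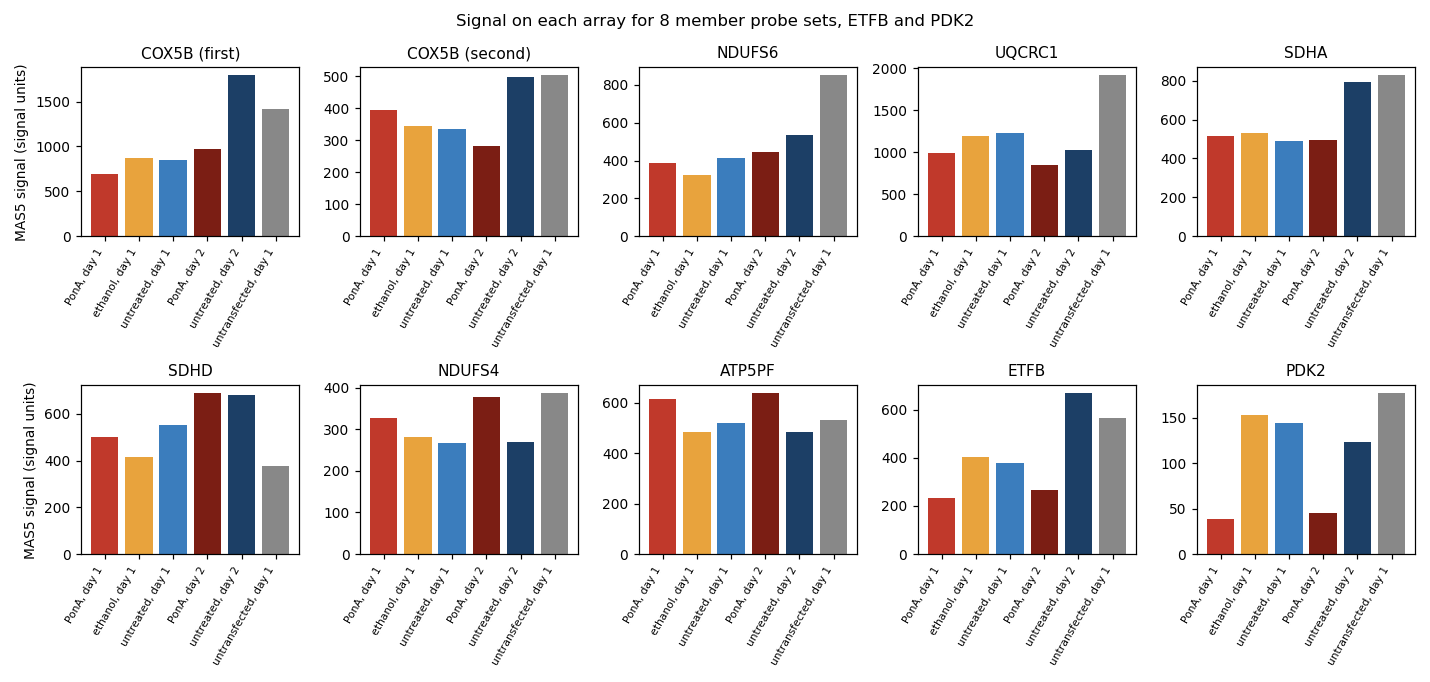
MAS5 signal in signal units of selected probe sets, 1 bar per array from 0, for transfected cells with PonA on day 1, ethanol on day 1, untreated on day 1, PonA on day 2 and untreated on day 2, and for untransfected cells on day 1; "first" and "second" mark a gene's brighter and dimmer probe set. NDUFS6 is highest in untransfected cells at 850.3 units, and the first COX5B probe set is highest in untreated cells of day 2 at 1790.1.

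Genes of neighbouring pathways were counted in the same PonA fit, in which 5.07% of all probe sets passed and 2.37% were lower. Of 11 tested genes for electron carriers and carriers of the inner membrane, 1 fell and none rose, with a median effect of 0.03. That gene was ETFB, the beta subunit of the flavoprotein that feeds electrons from fatty acid oxidation to ubiquinone, with 233 and 267 units with PonA on days 1 and 2, against 402 with ethanol and 380 and 667 untreated. The effect was -0.99 ± 0.20 (limma adjusted p = 0.0428). It was -1.32 without the PonA day 1 array (adjusted p = 0.0822) and -0.75 without either day 2 array (adjusted p = 0.293), and passed in neither case. Of 19 tested genes of the citric acid cycle and the pyruvate dehydrogenase complex, 1 fell and none rose, with a median of -0.19.

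The gene that fell there was PDK2, a kinase that switches off pyruvate dehydrogenase. It read 38.9 and 45.1 units with PonA on days 1 and 2, against 153 with ethanol and 144 and 123 untreated, and 177 in untransfected cells. Both PonA arrays lay far below the other 4, with an effect of -1.72 ± 0.19 (limma adjusted p = 0.00637), which was -1.45 without the PonA day 1 array (adjusted p = 0.0611). None of 7 tested assembly factors and none of 12 regulators of mitochondrial biogenesis passed, with medians of 0 and -0.04. NRF1, chosen here after its values were seen, read 44.8 and 37 units with PonA, against 71.4 with ethanol and 52 and 66.5 untreated (-0.62 ± 0.22, limma adjusted p = 0.182). YY1 and GABPA had effects of 0.04 and -0.05. GABPA lay about the floor, at 19.6 to 32.7 units over the arrays, so its effect says little. For day and for transfection, no gene of these 4 lists passed.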

How the data were processed

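The authors deposited MAS5 signal per probe set on a linear scale, an intensity-derived value; MAS5 is named in the submitters' processing notes, and its version is not given in the sources used here. The signal is not a log2 value, and its mean without the lowest and highest 2% of probe sets is 150.07 or 150.08 on each array. Symbols came from the platform annotation and all 69 member probe sets matched RefSeq GRCh38.p14. Probe sets whose names hold _s can read near-identical genes, and those with _i or _r are not plain _at sets either. Many of these subunits also have pseudogenes, so the values of all these probe sets are uncertain. The members and lists were chosen with earlier results of these data known.

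Signals below each array's 40th percentile were set to it and put on the log2 scale. Limma 3.58.1 in R 4.3.3 fitted PonA and day on the 5 transfected arrays (2 residual degrees of freedom, probe sets that passed the floor on 2 or more arrays), and transfection, PonA and day on all 6. P-values were adjusted by Benjamini-Hochberg (threshold 0.05). Errors are standard errors of these fits, and no depth exists for arrays: their number limits the precision. Pairs of single arrays were compared at 1.5-fold with at least 1 array above the floor, without a test. The fits were tested on simulated data. Named members were, per complex, those with the largest positive and negative PonA effect, tissue forms, core subunits, genes whose probe sets differ, and pathway genes that passed; NDUFA9 and other members named under day, transfection and single pairs were added after their values were seen. Alternatives were another floor, an offset of 32, quantile and median scaling, no filter, 2-fold, members by updated symbol, by plain _at probe sets or by 1 probe set per gene, and leaving out each transfected array.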

Additional observations from a re-analysis of the deposited data

How the results depend on the processing

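No member passed in any of the 42 combinations of fit and setting, but these are not separate tests. The other choices of members only recount the main fit, so none could pass there. In several combinations, such as transfection with a floor at the 20th percentile, no probe set at all passed. The median member effect moved by less than the members' median standard error in all 39 alternatives (PonA -0.15 to -0.01, transfection -0.26 to -0.17, day 0.03 to 0.15). The number of all probe sets called for PonA, 402, was 107 with a floor at the 20th percentile, 619 with log2(signal + 32) and 29 without a filter on low probe sets, and 107 to 653 with 1 array left out: 107 without either day 2 array, 215 without PonA on day 1 and 653 without ethanol. For transfection, 21 became 0 at the 20th percentile, 94 with the offset, 7 with quantile normalization, 33 with arrays centred on their median and 0 without a filter, and 25 to 70 with 1 array left out: 66 without untreated day 1 and 70 without ethanol. For day, 0 became 3 with the offset and 1 with centred arrays, and 0 to 7 with 1 array left out. At 2-fold the members apart numbered 0 for PonA over untreated on day 2, 1 for ethanol over untreated, 3 for transfection and 2 for untreated day 2 over day 1. A floor at the 20th percentile gave 4 for PonA over ethanol, 4 for PonA over untreated on day 1 and 5 for ethanol over untreated. The shares of all probe sets at 2-fold and at that floor are not given here, so these counts are not read as results about the members. Scaling moved the members lower on all 5 transfected arrays from 27 to 28 (quantile) or 25 (centred), where 21.2% and 21.7% of all probe sets were lower. Those lower with PonA numbered 11 in the reported values, beside 15.4% of all probe sets, and 14 when centred, beside 18.5%.

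Of 34 named values under 340 alternatives, 321 kept direction and side of the threshold, 7 were no longer past it and 12 turned sign. With 1 array left out, turned PonA effects ranged from -0.68 to 0.02 for SDHA and from -0.82 to 0.21 for the dimmer COX5B probe set (the highest without either day 2 array), from -0.03 without PonA on day 1 to 0.48 for ATP5MC3, and from -0.54 to 0.73 for NDUFA9. NDUFA9 also gave -0.01, -0.05 and -0.04 with the offset, quantile and centred values. The transfection effect of the brighter ATP5ME probe set was -0.004 with quantile normalization. ETFB lost its call at the 20th percentile (adjusted p = 0.149) and without a filter (0.107) with its effect still at -0.99, and PDK2 without a filter (0.0598) with its effect still at -1.72. Why these moved was not tested. No paired analysis was possible because each group is 1 array and the labels carry no replicate numbers. Signals near the floor limit what can be said of NDUFB6, ATP5F1B, ATP5PB, ATP5MG, ATP5MC2, the dimmer NDUFAF1 probe set and the regulator GABPA.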
